A study of Homo sapiens with 6 samples.

Results

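Staufen proteins and other binders of double-stranded RNA were followed after a knockdown of SATB1 in Jurkat, a long-established cell line from a human T cell leukaemia. The group holds 9 genes out of 58735 in the deposited tables: the Staufen genes STAU1 and STAU2, the Staufen partner UPF1, the RNA-editing enzymes ADAR and ADARB1, ILF2, DHX9, PRKRA and TARBP2. They were found by matching each gene's Ensembl identifier to its GENCODE 29 symbol. The group was chosen by the fold change of STAU1, which stood among the largest falls of this same comparison. The values of these 9 genes between the groups are therefore a description, given without p-values, and support nothing about how the group was formed.

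All cells carried a lentiviral vector. In 3 libraries it held a control short hairpin RNA (shCtrl, genotype control) and in 3 libraries a hairpin against SATB1 (shSATB1, genotype SATB1 knockdown). SATB1 encodes a chromatin organiser of T cells, and the comparison asks which transcripts differ when it is lowered. The series text names 1 vector per group, and neither the hairpin sequence nor the time after infection is given in the sources used here. With 1 vector per group, effects of lowered SATB1 and other effects of the hairpin cannot be told apart for any gene. Whether replicates came from separate infections is not stated, and every p-value therefore reflects library-to-library spread that may be technical.

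Between 26626539 and 28913623 reads per library lay in annotated genes. The targeted gene stood at 279.1, 258.5 and 259.3 CPM (read counts scaled to a common library size) in shCtrl 1, 2 and 3 and at 101.8, 100.2 and 104.1 CPM in shSATB1 1, 2 and 3, which left 38.4% of the control level (95% interval 35.1% to 42.1%). All 10 T lineage markers examined were expressed, summing to between 3776 and 4182 CPM in shCtrl and between 3474 and 3735 CPM in shSATB1. The B lineage marker CD79A was also present, at 60.5 ± 5.03 CPM (SD, n = 3) in shCtrl and 50.4 ± 4.61 CPM in shSATB1, whereas MS4A1 and PAX5 had at most 9 reads in any library. The 4 myeloid markers summed to at most 2.22 CPM, the 3 erythroid and 4 epithelial markers to less than 1 CPM, and HBA1 and EPCAM had no read. Reads in no annotated exon made up 7.77% to 10.2% in shCtrl and 10.9% to 11.7% in shSATB1, so their share moved with the groups. The part of these differences in the results below was not tested, beyond a fit with that share as a covariate. In these bulk libraries, fewer cells of a type and less RNA per cell cannot be told apart.

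Double-stranded RNA forms inside single transcripts, between transcripts and during viral infection, and a set of proteins recognises its shape rather than its sequence. Staufen proteins bind such structures to move, translate or destroy mRNAs. In Staufen-mediated decay, Staufen bound to a 3′ untranslated region recruits UPF1, the helicase that also drives nonsense-mediated decay of transcripts with early stop codons. ADAR enzymes change adenosine to inosine in double-stranded RNA, ILF2 and DHX9 work in nuclear RNA complexes, and PRKRA and TARBP2 are related cofactors of Dicer that also act on the antiviral kinase PKR.

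STAU1 (ENSG00000124214, hg38 chromosome 20, 49113339 to 49188367, minus strand, protein coding) is the gene on which the group turns, and RefSeq (GRCh38.p14) gives it start sites at 2 places. Both start windows are printed because the neighbouring gene DDX27 begins inside the upstream one, which allows the counts of both genes to be set beside their shared start. Each runs 5′ to 3′ on the minus strand from 250 bases before the start to 50 bases from the start on, and the capitals mark these last 50 bases, the transcribed ones.
STAU1 gene start, chr20:49188285-49188584: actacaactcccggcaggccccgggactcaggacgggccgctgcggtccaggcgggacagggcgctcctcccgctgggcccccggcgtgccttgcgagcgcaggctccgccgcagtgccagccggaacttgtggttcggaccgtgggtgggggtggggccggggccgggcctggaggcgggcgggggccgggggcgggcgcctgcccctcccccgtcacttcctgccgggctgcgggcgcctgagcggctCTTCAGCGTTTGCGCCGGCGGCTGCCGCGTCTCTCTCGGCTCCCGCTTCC
STAU1 upstream start, chr20:49219246-49219545: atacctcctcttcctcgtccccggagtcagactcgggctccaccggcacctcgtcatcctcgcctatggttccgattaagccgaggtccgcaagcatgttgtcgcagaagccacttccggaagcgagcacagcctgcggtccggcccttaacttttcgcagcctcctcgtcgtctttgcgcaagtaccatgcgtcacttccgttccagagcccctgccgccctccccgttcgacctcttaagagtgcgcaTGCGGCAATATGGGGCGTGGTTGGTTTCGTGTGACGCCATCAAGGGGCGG

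The first window lies at the start of the annotated gene. It has 78.0% G or C and 37 CpG dinucleotides, against medians of 58.67% and 14 over 35116 RefSeq start windows of the same 300 bases. The upstream window has 61.3% G or C and 29 CpG. Its start base, 49219295, is also the first base of DDX27, an RNA helicase gene on the plus strand, and lies outside the span that GENCODE 29 gives to STAU1. Exons that lie outside that span are not part of the GENCODE 29 gene model of STAU1. The letters CCGGAA, the core that ETS factors recognise, were searched on both strands and occur in both windows. In the upstream window the matches on the strands overlap each other. The same letters were found in 17.2% of all windows and in 4 of the 18 windows of the 8 members searched, the others being in ADAR. STAU2 was the member not searched, so the Staufen genes are not compared at their starts. The GC box GGGCGG, also searched on both strands, occurs in 14 of these 18 windows and in 45.0% of all windows. Windows of the same gene can overlap, as the ADAR windows with CCGGAA do, so both counts are of windows and not of separate stretches. A match in letters is a description of the window and does not show a bound factor.

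STAU1 was the member with the largest difference. It encodes a cytoplasmic double-stranded RNA-binding protein that carries and destabilises mRNAs. Its level was 176.5, 182.6 and 171.7 CPM in shCtrl 1, 2 and 3 and 55.6, 55.8 and 53.2 CPM in shSATB1 1, 2 and 3, from 1528 to 5022 reads per library. All 3 knockdown libraries lay far below all 3 controls, and the lowest control library was 3.08 times the highest knockdown library. The fit put the log2 fold change at -1.69 (SE 0.0612), which left 31.0% of the control level (95% interval 28.3% to 34.0%). That is a smaller remainder than the 38.4% of SATB1 itself. Whether the fall of STAU1 came through lowered SATB1 or through another effect of the hairpin was not tested. Of 17520 genes tested, 11 had a lower fitted log2 fold change, and among the 9945 genes with a group mean of at least 10 CPM only DNTT, IGLL1 and NDUFAB1 did. Over 16 other settings of the analysis the log2 fold change of STAU1 lay between -1.71 and -1.63.

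**Figure D1:**
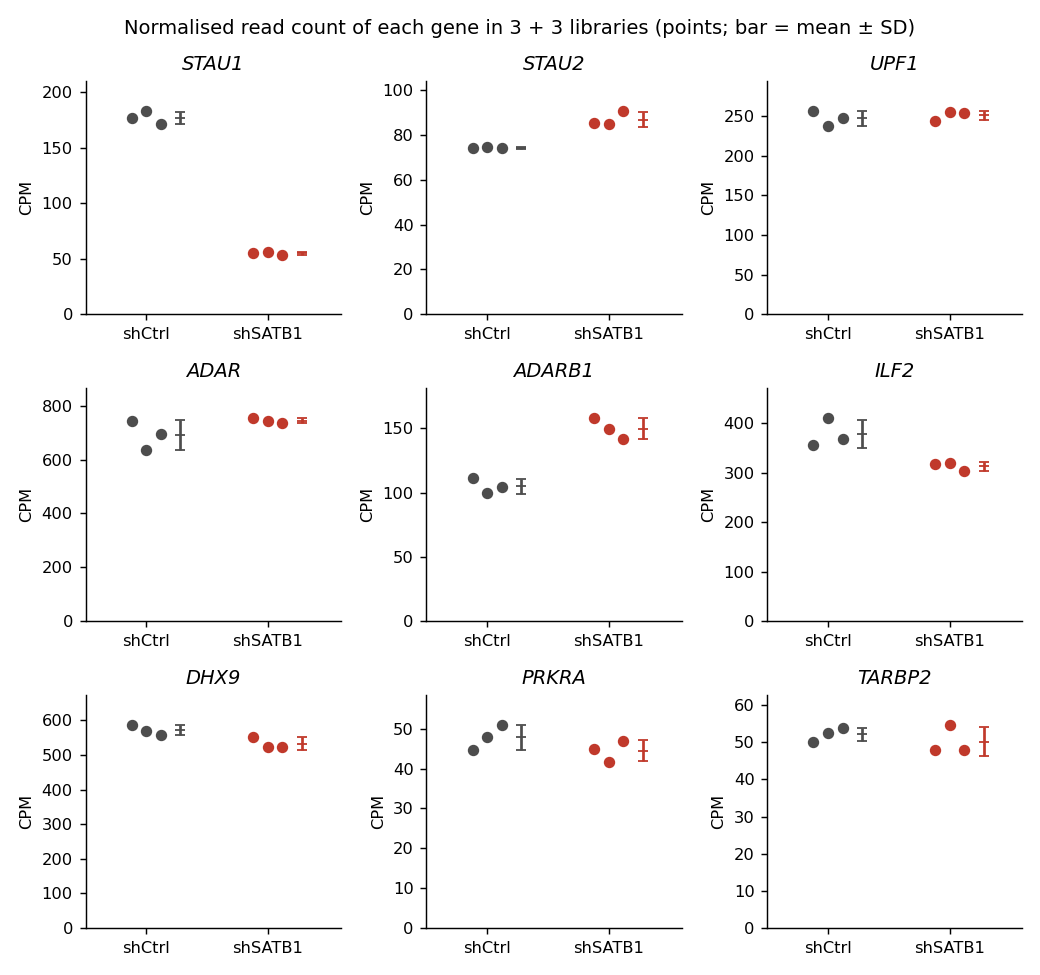
Normalised read counts (CPM, y axis from 0) of the 9 genes in each of 3 shCtrl and 3 shSATB1 libraries, as points in the order of replicates 1 to 3, with the group mean ± SD beside them. STAU1 falls from between 171.7 and 182.6 to between 53.2 and 55.8 CPM, while ADARB1 and STAU2 lie higher and ILF2 lower in shSATB1, and the others differ little.

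The paralogue STAU2 (ENSG00000040341, chromosome 8, 73420369 to 73747708), best known for transport of mRNA in neurons, went the other way. The control libraries held 74.2, 74.6 and 74.0 CPM and the knockdown libraries 85.5, 84.7 and 90.5 CPM. The groups did not overlap, and STAU2 rose by 17.0% (95% interval 7.08% to 27.9%, log2 fold change 0.23, SE 0.0596). This rise was small beside the fall of STAU1, and its call was lost without shCtrl replicate 3 (log2 fold change 0.22), without shSATB1 replicate 3 (0.20) and with the covariate, the share of reads outside annotated exons (0.22).

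Set together per kilobase of exon, STAU1 and STAU2 summed to 51.5 ± 1.38 CPM per kilobase in shCtrl and 23.1 ± 0.0255 in shSATB1 (SD, n = 3). STAU1 supplied 83.9%, 84.3% and 83.6% of that sum in the control libraries 1, 2 and 3, against 58.9%, 59.1% and 56.4% in the knockdown libraries. The share was therefore lower in every knockdown library. These shares rest on the exon length used, because STAU2 has 29 annotated transcripts and a union of exons of 8998 bases, against 4061 bases for its longest transcript. With the longest transcript of each gene as its length, STAU1 supplied 72.4% ± 0.534 in shCtrl and 41.0% ± 1.51 in shSATB1. The fall in the share was present with either length, but which Staufen transcript was the more abundant one after the knockdown depended on it.

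UPF1 (ENSG00000005007, chromosome 19, 18831938 to 18868236) encodes the helicase through which Staufen-mediated and nonsense-mediated decay both run. Its level was 255.8, 237.6 and 247.8 CPM in shCtrl and 244.4, 255.3 and 253.3 CPM in shSATB1. The groups overlapped, and the difference was 1.59% with a 95% interval from -6.99% to 11.0% (log2 fold change 0.02, SE 0.0593). A change of UPF1 as large as that of STAU1 lies far outside this interval.

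The editing enzymes differed from each other. ADARB1 (ENSG00000197381, chromosome 21, 45073853 to 45226560), which encodes ADAR2, had 111.1, 99.5 and 104.1 CPM in the controls, against 157.8, 149.4 and 141.5 CPM after the knockdown. Every knockdown library was above every control library. ADARB1 rose by 42.6% (95% interval 29.2% to 57.4%, log2 fold change 0.51, SE 0.0664), and it remained called in all 16 other settings, between 0.38 and 0.56 in log2. ADAR (ENSG00000160710, chromosome 1, 154582057 to 154628013), the more abundant and interferon-inducible enzyme gene, ranged from 634.3 to 742.8 CPM in shCtrl and from 736.1 to 753.3 CPM in shSATB1. These ranges overlapped, and its difference of 7.82% had a 95% interval from -2.43% to 19.1%. Per kilobase of exon, ADARB1 made up 12.8% ± 0.305 of the sum of both genes in shCtrl and 16.2% ± 0.583 in shSATB1, and with the longest transcripts 13.6% ± 0.321 and 17.2% ± 0.611. RNA editing itself cannot be read from gene counts.

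Of the nuclear proteins, ILF2 was lower. ILF2 (ENSG00000143621, chromosome 1, 153661788 to 153671048) encodes NF45, a DZF-domain protein of nuclear RNA complexes. Its controls were at 356.9, 410.0 and 368.4 CPM and its knockdown libraries at 316.9, 319.95 and 302.5 CPM. The groups did not overlap, but shCtrl 2 stood well above the other controls and is also the library with the smallest share of reads outside annotated exons. ILF2 fell, with a change of -17.3% (95% interval -25.0% to -8.65%, log2 fold change -0.27, SE 0.0665). The call was lost without shSATB1 replicate 3 (log2 fold change -0.24) and with that share as a covariate (-0.08). ILF2 overlaps SNAPIN on the opposite strand, and since the strand setting is not given in the sources used here, the split of reads between them is uncertain.

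DHX9 (ENSG00000135829, chromosome 1, 182839369 to 182887751), a helicase that unwinds double-stranded RNA, had 558.4 to 586.2 CPM in shCtrl and 522.5 to 553.0 CPM in shSATB1. The ranges did not overlap, yet the difference was not called in the analysis as described, at -6.78% with a 95% interval from -14.7% to 1.86%. It was called, at a log2 fold change of -0.12, once each library's trend with gene length and GC content was removed.

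The Dicer cofactors were close to their control levels. TARBP2 (ENSG00000139546, chromosome 12, 53500921 to 53506431) encodes TRBP, which holds PKR in check, and ranged from 50.2 to 53.8 CPM in shCtrl and from 47.8 to 54.6 CPM in shSATB1. PRKRA (ENSG00000180228, chromosome 2, 178431414 to 178451512) encodes PACT, which activates PKR, and ranged from 44.7 to 50.9 CPM in shCtrl and from 41.6 to 47.0 CPM in shSATB1. Both pairs of ranges overlapped. The 95% intervals of the difference ran from -13.5% to 7.004% for TARBP2 and from -16.7% to 3.77% for PRKRA. Per kilobase of exon, TARBP2 made up 51.2% ± 0.779 of the sum of both in shCtrl and 52.0% ± 3.35 in shSATB1. Reads in the overlap of PRKRA with the antisense gene AC009948.1, itself at 29.5 ± 3.09 and 32.9 ± 3.14 CPM, cannot be assigned without the strand setting.

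**Figure D2:**
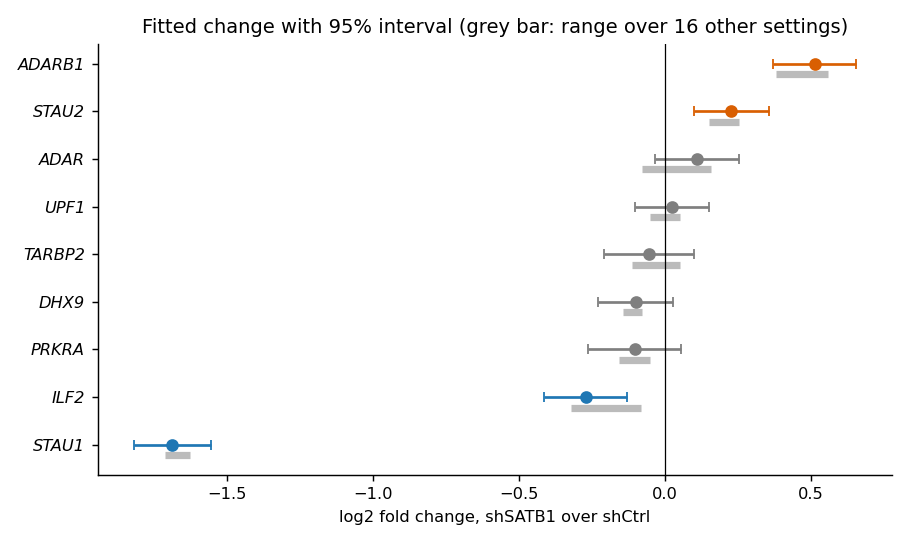
Fitted log2 fold change (x axis) of the 9 genes in shSATB1 over shCtrl with its 95% interval. Blue marks genes called lower, orange genes called higher and grey genes not called, and the grey bars give the range over 16 other settings of the analysis. STAU1, at -1.69, stands apart from the other 8 genes, which lie between -0.27 and 0.51.

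All 9 genes passed the filter on low counts, with between 1180 and 21350 reads per library. A gene was called when its adjusted p was under 0.05 (edgeR quasi-likelihood test, Benjamini-Hochberg adjustment over all 17520 genes tested). By that measure 2 of the 9 genes were called higher, where 14.3% of all tested genes were, and 2 were called lower, where 16.6% were. The libraries of the groups did not overlap for 5 of the 9 genes, against 45.1% of all tested genes. Because the members were chosen with this comparison known, nothing is read from these counts. The median log2 fold change of the members was -0.06, and that of all tested genes was 0.01.

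The levels per kilobase of exon put the genes in an order that differed between the groups at STAU1 and at ADARB1. ADARB1 stood below TARBP2 and PRKRA in shCtrl and above both in shSATB1. In shCtrl it ran from ILF2 at 165.9 ± 12.2 CPM per kilobase (SD, n = 3) through DHX9 at 101.2 ± 2.48, ADAR at 71.3 ± 5.61, STAU1 at 43.2 ± 1.34 and UPF1 at 28.7 ± 1.06 to TARBP2 at 12.7 ± 0.441, PRKRA at 12.1 ± 0.794, ADARB1 at 10.4 ± 0.582 and STAU2 at 8.25 ± 0.0359. Of these neighbours, TARBP2 and PRKRA did not differ beyond their spread. In shSATB1 the top of the order was the same without STAU1, with ILF2 at 137.3 ± 4.07, DHX9 at 94.4 ± 3.12, ADAR at 76.9 ± 0.888 and UPF1 at 29.2 ± 0.674 CPM per kilobase. STAU1, at 13.4 ± 0.354, came to lie between ADARB1 at 14.9 ± 0.811 and TARBP2 at 12.3 ± 0.956, with PRKRA at 11.3 ± 0.682 and STAU2 at 9.66 ± 0.350 below. Among these, STAU1 and TARBP2 and also TARBP2 and PRKRA met within their spread. With the longest transcript as length STAU1 was the lowest of the 9 in shSATB1, at 14.9 ± 0.393, below STAU2 at 21.4 ± 0.775. By that length ADARB1, at 21.7 ± 1.18 in shSATB1, stayed below TARBP2 at 26.9 ± 2.09 and PRKRA at 24.0 ± 1.45. It met PRKRA within their spread.

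**Figure D3:**
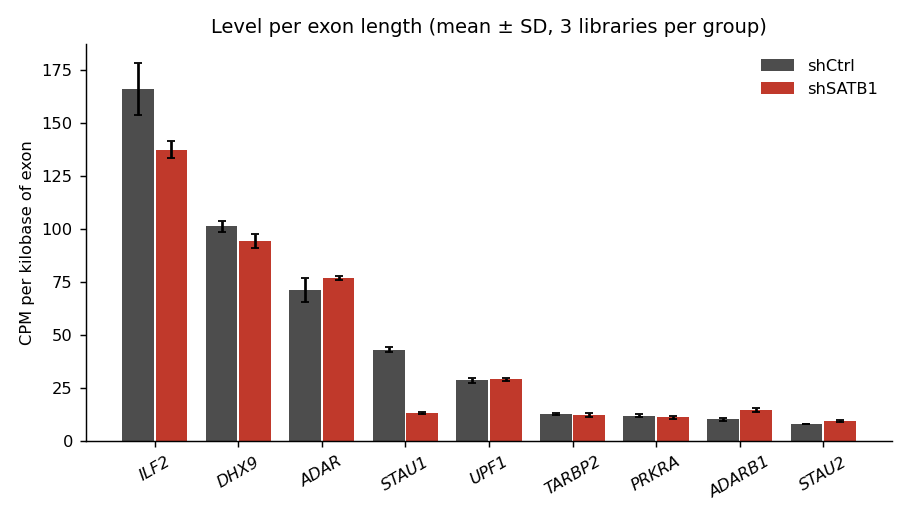
Level of the 9 genes as CPM per kilobase of the union of exons (y axis from 0), as bars for the mean and lines for the SD of 3 libraries per group. STAU1 drops from 43.2 to 13.4, to the height of TARBP2, PRKRA and ADARB1, and the order of the 4 most abundant other genes stays the same.

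None of the tested genes around STAU1 was called lower with it in the analysis as described. Of 15 annotated genes whose start lies within 200 kb of an end of STAU1, 6 were tested, and 1 of them rose and 0 fell (edgeR). Of all tested genes 14.3% rose and 16.6% fell, so nothing particular to this place is read from counts over 6 genes. DDX27, which begins at the upstream STAU1 start printed above, stood at 73.9 ± 2.92 CPM in shCtrl and 71.9 ± 1.09 CPM in shSATB1, with a log2 fold change of -0.04 (SE 0.0609, adjusted p = 0.668). On the other side CSE1L, a nuclear export receptor gene, was at 330.7 ± 14.9 and 303.7 ± 5.32 CPM (adjusted p = 0.140). The call was ARFGEF2, a vesicle transport gene, from 97.2 ± 13.4 to 125.2 ± 2.81 CPM (log2 fold change 0.36, SE 0.0841, adjusted p = 0.0050), and it was lost with the covariate (0.03). ZNFX1, ZFAS1 and SNORD12B, which lie about 90 kb upstream, had log2 fold changes of 0.20, -0.10 and 0.41 and were not called. ZNFX1 was called with a replicate block (0.20) and without shCtrl replicate 1 (0.27), and CSE1L with length and GC removed (-0.15).

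**Figure D4:**
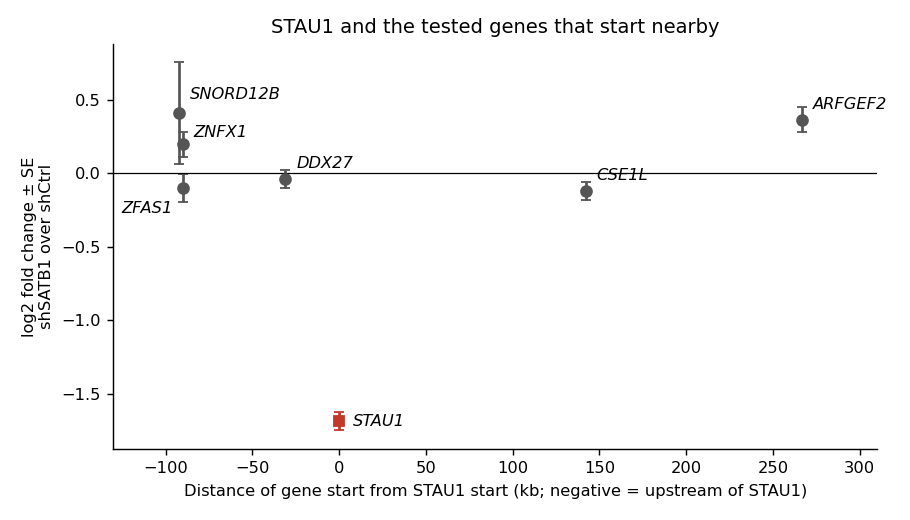
Log2 fold change ± SE (y axis) of STAU1, as a red square, and of the 6 tested neighbouring genes, against the distance in kb of each gene's start from the STAU1 start (negative values lie upstream of STAU1). The neighbours lie between -0.12 and 0.41, far above STAU1 at -1.69.

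The genes whose levels over the 6 libraries were most like those of STAU1 lay on other chromosomes. Likeness was the distance between log2 CPM values, each centred on the gene's own mean over the 6 libraries, among 9770 other genes with a mean of at least 10 CPM. The nearest was NDUFAB1 on chromosome 16 (distance 0.236), which encodes the acyl carrier protein of mitochondria, followed by DNTT, which adds nucleotides at antigen receptor joints (chromosome 10, 0.248), and IGLL1, a surrogate light chain gene (chromosome 22, 0.356). CHI3L2, a chitinase-like gene (chromosome 1, 0.375), came next, from 1889 ± 150.6 to 713.7 ± 30.1 CPM, then SATB1 (0.405) and CDHR1, a cadherin-related gene (chromosome 10, 0.581). In all of them the 3 shSATB1 libraries lay below the 3 controls, which is what the measure selects over 6 libraries in 2 groups.

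The pathway partners of the members were read from 7 lists of 92 genes, of which 88 were tested. Together 20 rose and 16 fell, or 22.7% and 18.2% of the tested ones, where 14.3% and 16.6% of all tested genes did. Their median log2 fold change was 0.01, as for all tested genes, and nothing particular to the lists is read from these shares. Of 24 factors of Staufen-mediated and nonsense-mediated decay, 5 rose and 4 fell (20.8% and 16.7%), and 15 were not called. With length and GC removed 4 rose and 7 fell. PYM1, which takes exon junction complexes off mRNA, rose from 21.8 ± 2.23 to 33.2 ± 2.08 CPM (adjusted p = 0.000210), and the UPF1 adaptor gene UPF3B from 47.7 ± 3.05 to 59.8 ± 3.85 CPM (adjusted p = 0.00409). GSPT1, the release factor eRF3A, fell from 280.9 ± 8.81 to 200.7 ± 4.94 CPM (adjusted p = 5.93e-05). The exonuclease gene XRN1 rose from 71.4 ± 13.3 to 94.98 ± 6.52 CPM (adjusted p = 0.00895), but the covariate reversed its sign (-0.06 in log2). The other rises were CASC3 and UPF3A and the other falls EIF4A3, SMG5 and DHX34, named after their values were seen. Falls numbered 1 without shSATB1 replicate 1 and 2 without shCtrl replicate 3, shSATB1 replicate 2 or shSATB1 replicate 3, and rises 3 without shSATB1 replicate 3, while 7 rose and 6 fell without shCtrl replicate 1.

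Of 14 tested genes of other proteins with a double-stranded RNA-binding or DZF domain, 4 rose and 2 fell. That is 28.6% and 14.3%, against 14.3% and 16.6% of all tested genes. DICER1, the nuclease that TARBP2 and PRKRA serve, rose from 116.6 ± 22.3 to 209.0 ± 13.1 CPM (adjusted p = 7.86e-05), with a log2 fold change of 0.84 that was 0.34 with the covariate. ADARB2, a relative of ADAR without known editing activity, rose from 1.29 ± 0.589 to 2.86 ± 0.514 CPM (adjusted p = 0.00595), a call lost with the covariate (log2 fold change 0.62). The splicing cofactor gene SON rose from 431.1 ± 59.6 to 533.8 ± 21.97 CPM (adjusted p = 0.0145), but the covariate turned its direction (-0.04). The dihydrouridine synthase gene DUS2 fell from 22.3 ± 1.61 to 18.0 ± 1.62 CPM (adjusted p = 0.0191), a call lost with the covariate (-0.29) and with length and GC removed (-0.22). ZFR and DROSHA, named after their values were seen, were the other rise and the other fall. With the covariate 1 gene of this list rose and 0 fell (edgeR). The falls also numbered 0 without shCtrl replicate 3, shSATB1 replicate 2 or shSATB1 replicate 3, and rises numbered 2 without shCtrl replicate 3, shSATB1 replicate 1 or shSATB1 replicate 3.

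Of 11 tested sensors of double-stranded RNA, 1 rose and 1 fell, 9.1% each, where 14.3% and 16.6% of all tested genes did. With length and GC removed 1 rose and 4 fell. OAS1, an enzyme that makes oligoadenylates on sensing double-stranded RNA, fell from 6.10 ± 0.619 to 4.47 ± 0.296 CPM (adjusted p = 0.0203). Its call was lost with the covariate (log2 fold change -0.16), and also without shCtrl replicates 2 or 3 and without shSATB1 replicates 1 or 3. The kinase gene EIF2AK2 (PKR), named after its values were seen as the target of PRKRA and TARBP2, stood at 58.6 ± 4.65 and 61.2 ± 3.18 CPM and was not called (adjusted p = 0.553).

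Of 10 RISC and microRNA export proteins, 5 rose and 1 fell, or 50% and 10%, against 14.3% and 16.6% of all tested genes. Besides DICER1, the rises were TNRC6A, a scaffold of microRNA silencing, from 113.4 ± 15.9 to 206.6 ± 5.93 CPM (adjusted p = 1.17e-05), AGO4, from 60.1 ± 3.30 to 81.9 ± 3.95 CPM (adjusted p = 0.000273), and TNRC6B and AGO3. XPO5, the export receptor of microRNA precursors, fell from 162.6 ± 7.24 to 115.2 ± 4.07 CPM (adjusted p = 7.11e-05). The balance of this list turned with the covariate, to 3 rises and 5 falls and a median log2 fold change of -0.23 in place of 0.26. The covariate lowered the log2 fold change of TNRC6A from 0.86 to 0.51 and that of AGO4 from 0.45 to 0.28. With length and GC removed the list had 3 rises and 4 falls, and without shCtrl replicate 2 it had 5 rises and 4 falls. TNRC6B and AGO3 were named after their values were seen.

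Of 15 partners in Staufen granules and transport, 4 rose and 3 fell, or 26.7% and 20%, against 14.3% and 16.6% of all tested genes. The kinesin gene KIF5B rose from 222.8 ± 1.61 to 263.3 ± 16.3 CPM (adjusted p = 0.00988), and the nucleic acid-binding genes PURA and PURB from 77.5 ± 7.10 to 93.9 ± 6.92 CPM (adjusted p = 0.0155) and from 172.5 ± 14.5 to 204.1 ± 9.24 CPM (adjusted p = 0.0185). All 3 calls were lost with the covariate, without shCtrl replicate 3 and without shSATB1 replicate 3, and the covariate took the log2 fold changes of PURA and PURB to 0.01 and -2.6e-05. CASC3, listed with the decay factors too, was the fourth rise, and XPO5, ELAVL1 and PABPC1 were the falls. With the covariate 0 rose and 2 fell (edgeR), and with length and GC removed 3 rose and 8 fell. Rises also numbered 0, and falls 1, without shCtrl replicate 3 and without shSATB1 replicate 3, and 2 rose and 1 fell without shSATB1 replicate 1. ELAVL1 and PABPC1 were named after their values were seen.

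RNAs that decay is known to act on moved in both directions. Of 6 tested mRNAs reported as Staufen-mediated decay targets, 3 rose and 1 fell, or 50% and 16.7%. Of all tested genes 14.3% rose and 16.6% fell. The median log2 fold change of the list was 0.47, against 0.01 for all tested genes. JUN, a subunit gene of AP-1, rose from 20.1 ± 0.213 to 43.4 ± 2.45 CPM (adjusted p = 4.37e-07), KLF2, a regulator of lymphocyte trafficking, from 32.8 ± 3.67 to 60.4 ± 3.84 CPM (adjusted p = 8.44e-06) and TWSG1, a BMP-binding protein gene, from 20.8 ± 1.27 to 25.4 ± 1.06 CPM (adjusted p = 0.0147). ARF1, the first described target, fell from 364.5 ± 17.8 to 281.8 ± 12.7 CPM (adjusted p = 0.000734), with a log2 fold change of -0.37 that was -0.22 with the covariate. IL7R, the interleukin-7 receptor gene, stood at 33.1 ± 0.789 and 34.2 ± 1.26 CPM and was not called (adjusted p = 0.636). GAP43 had no read in any library, which allows up to 0.103 to 0.111 CPM (3 reads per library, counting error only). The list was written with earlier results of these libraries known, so its counts are no independent evidence. The TWSG1 call was lost with the covariate and without shSATB1 replicates 1 or 3.

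Of 18 RNAs reported as nonsense-mediated decay targets, 1 rose and 6 fell, with a median log2 fold change of -0.14. That is 5.6% and 33.3%, against 14.3% and 16.6% of all tested genes. The snoRNA host gene SNHG12 fell from 17.2 ± 1.62 to 12.2 ± 1.31 CPM (adjusted p = 0.00292), the stress response gene GADD45B from 8.41 ± 0.705 to 5.90 ± 0.151 CPM (adjusted p = 0.00412) and the acetyltransferase gene NAT9 from 56.2 ± 2.81 to 43.8 ± 1.26 CPM (adjusted p = 0.00125). ATF4, the transcription factor of the integrated stress response, fell from 597.8 ± 54.8 to 470.6 ± 24.6 CPM (adjusted p = 0.00305). GAS5 and SMG5, named after their values were seen, were the other falls and UPF3B the rise. UPF3B and SMG5 are listed with the decay factors too, so their calls are counted in both lists. Without shCtrl replicate 1, 3 rose and 7 fell. With the covariate 1 rose and 2 fell, and the 4 falls given with values lost their calls, at log2 fold changes of -0.21 for SNHG12, -0.29 for GADD45B, -0.22 for NAT9 and -0.08 for ATF4. Whether decay itself differed was not tested.

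**Figure D5:**
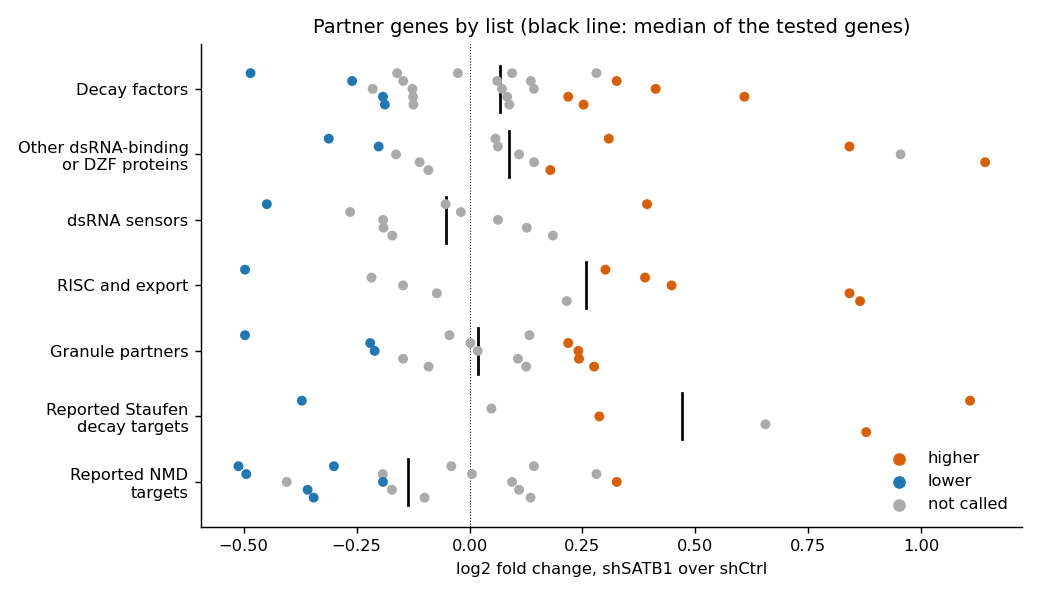
Log2 fold change in shSATB1 over shCtrl (x axis) of each tested partner gene in 7 lists (rows; a gene may be in more than 1), coloured by call, with a black line at each list's median. Calls in both directions are found in every list, and the medians lie between -0.14 and 0.47.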

How the data were processed

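RNA-seq libraries came from total RNA of Jurkat cells, and the titles gave each sample's group and replicate. Raw counts of reads per Ensembl gene were deposited by the authors as 1 unpooled table per library. Trim Galore, STAR, HTSeq and hg38 are named, without versions, per the submitters' processing notes; their annotation release, strand setting and RNA selection: not given in the sources used here. All 58735 identifiers matched GENCODE 29. The 5 closing lines that name no gene stayed out of tests; ambiguous reads made up 9.54% to 10.1% in shCtrl and 8.99% to 9.32% in shSATB1.

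Counts were tested with edgeR 4.0.16 in R 4.3.3 (TMM, filterByExpr with a minimum count of 10, quasi-likelihood F test, no covariates), with Benjamini-Hochberg adjustment over all 17520 genes tested and a threshold of 0.05. CPM per kilobase divides by the union of exons. Tests on simulated counts for shSATB1 against shCtrl (17234 genes) recovered 46.1%, 90.1% and 96.1% of genes changed by 0.5, 1 and 2 in log2, with 6 false calls. The other settings were other normalizations (DESeq2 size factors, upper quartile), filters (none, 1 CPM in 3 libraries) and tests (DESeq2 1.42.0, limma-voom 3.58.1), a replicate block, a null of a 1.2-fold change, a covariate (each library's percentage of reads outside annotated exons), length and GC offsets, and each library left out.

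The members and lists were chosen with earlier results of these data known. Named partners are, per list, up to 4 called genes with the largest change (or, with fewer than 2 called, the 2 most abundant); neighbours start within 200 kb of the ends of STAU1, and the 6 genes most like it are given. Some listed genes enter the counts but are not reported here by name.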

Additional observations from a re-analysis of the deposited data

How the results depend on the processing

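STAU1 and ADARB1 kept their direction and call in all 16 alternatives. STAU2 kept its direction in all and its call in 12 of 16, and ILF2 in all and in 13 of 16. Both lost the call against a null of a 1.2-fold change. All alternatives reuse the libraries by which STAU1 was chosen, so they describe the processing and are no separate evidence. Members not called turned direction with the covariate (UPF1 -0.0515, ADAR -0.0802, TARBP2 0.0496 in log2) and with length and GC offsets (UPF1 -0.00389, TARBP2 0.0457). Leaving out 1 library gave UPF1 -0.000321 (without shCtrl replicate 2) to 0.0493 (without shSATB1 replicate 1). The covariate also turned DDX27 (0.0445), PURB (-2.6e-05), SNORD12B (-0.20), SON (-0.0403), XRN1 (-0.0644) and ZNFX1 (-0.0812). The cause was not tested, and the covariate's ranges in the groups do not overlap. Against a null of a 1.2-fold change, 758 genes were called higher and 698 lower, among them 1 and 1 of the members and 7 and 2 of the listed partners. With the covariate, 858 were called higher and 1262 lower, 1 and 1 of the members and 8 partners higher. With length and GC offsets 29 partners were called lower. Leaving out 1 library gave 1650 to 3218 genes higher and 1817 to 3562 lower, 1 to 2 members higher and 1 to 2 lower, and 11 to 26 partners higher and 9 to 21 lower. A replicate block gave 2783 higher and 3120 lower and left 2 and 2 members called. The labels do not say that replicate numbers mark pairs, so the numbers were not taken as pairs. Deviations of same-numbered libraries correlated at 0.156, 0.127 and 0.00845, and those of differently numbered libraries at -0.162 to 0.033. Not every library correlated best with its own number, and these values do not settle whether the numbers mark pairs. With the longest transcript as length, per-length levels of all 9 members in shCtrl moved by more than their SD, to between 15.2 (ADARB1) and 198.5 (ILF2) CPM per kilobase. Depth was no limit for the members, with at least 1180 reads each.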

Other observations

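Annotated genes that share ground or sequence with the members were outside the comparisons above. AL133499.1, a long noncoding RNA gene opposite ADARB1, had 0, 0 and 1 reads in shCtrl 1, 2 and 3 and 4, 6 and 5 reads in shSATB1 1, 2 and 3, too few to be tested. SSR4P1, also opposite ADARB1, stood at 6.87 ± 1.26 and 5.99 ± 0.175 CPM (SD, n = 3). SNAPIN, a vesicle fusion gene opposite ILF2, stood at 29.6 ± 2.82 CPM in shCtrl and 25.8 ± 0.453 CPM in shSATB1. The ILF2 pseudogenes ILF2P1 and ILF2P2 had at most 1 read in any library, and DHX9P1 had 1 to 3 reads in shCtrl and 4 to 5 in shSATB1. ARPC3P1, inside STAU1 on the opposite strand, had 2 to 13 reads per library, and STAU2-AS1 at most 5.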
